A study of Homo sapiens with 12 samples.

Results

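The liver makes most of the protein in blood plasma, and 52 genes encoding such proteins were followed here through 12 RNA sequencing libraries of hepatocellular carcinoma (HCC) cells. The genes were taken by name from a list and fall into 5 groups, namely 15 carriers and acute phase proteins, 15 coagulation genes, 6 complement genes, 8 apolipoproteins and 8 protease inhibitors and hormone precursors. Of these, 43 were among the 11548 genes of the table, with 12, 14, 5, 8 and 4 in the groups in the same order. The other 9 (HP, ITIH1, ITIH3, CFB, SERPINA3, FETUB, PLG, ITIH4 and A1BG) were not analysed here.

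RNA was sequenced from the human HCC lines Hep3B, Huh7 and MHCC97H, each untreated, with AZD8055, with compound #57 or with both. AZD8055 inhibits the mTOR kinase and was used at 100 nM, and compound #57 is an allosteric inhibitor of the phosphatase SHP2, which was used at 5 µM in the combination. The dose of compound #57 given alone is not given in the sources used here. Hep3B and Huh7 cells were exposed for 48 h and MHCC97H cells for 24 h, which ties the exposure to the line, and their parts in a difference cannot be told apart. Each of the 12 conditions is 1 library of an established cell line grown in culture, with 10659951 to 15957252 reads, and the cell lines are the only repeats of a treatment. Values below are reads scaled to 10000000 per library, called scaled reads, and are listed in the order untreated, AZD8055, compound #57 and combination.

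Hepatocytes secrete albumin and transferrin, which carry ligands through the blood, the clotting factors with their inhibitors, complement proteins and the apolipoproteins that package lipid into lipoprotein particles. Fibrinogen is built from the products of FGA, FGB and FGG, which lie side by side in the genome and are known to be transcribed together, above all in the acute phase response to interleukin 6. The promoters of these genes are classical targets of the liver factors HNF4, FOXA and C/EBP, and their transcripts are used as signs of hepatocyte differentiation in liver cell lines.

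Of 16 listed hepatocyte markers that are not among the 43 genes, 12 were in the table. With limma fitted to all genes, 10 of these 12 were lower in MHCC97H than in Hep3B and 9 were lower than in Huh7. KRT8, an epithelial keratin, was higher in both comparisons. In the same contrasts, 67.8% and 70.2% of all genes were called in either direction. ASGR1, a subunit of the asialoglycoprotein receptor, had 1488, 1228, 1307 and 899.5 scaled reads in Hep3B, 491, 387, 701 and 589 in Huh7 and 4.61, 11.2, 8.78 and 4.86 in MHCC97H. Thus most of these markers were at far lower levels in MHCC97H than in Hep3B and Huh7. The table holds only genes with a mean of at least 4.65 on the log2 scale. A marker low in MHCC97H is therefore in it through the other lines, and these counts cannot test a difference in lineage. The 7 of 12 listed mesenchymal markers in the table summed to 25360 scaled reads in untreated Hep3B, 66430 in Huh7 and 82990 in MHCC97H. They summed to 40660, 141700 and 171700 with AZD8055 and to 62370, 103500 and 133600 with the combination. FN1 held most of the untreated sums, with 19435, 60234 and 81332 scaled reads. Most of the other markers went the other way between lines. In limma, COL1A2, PDGFRB, COL1A1 and VIM were lower in MHCC97H than in Hep3B, and ZEB1 and FN1 higher. Against Huh7, COL1A2, PDGFRB, COL1A1, VIM and CDH2 were lower in MHCC97H, and FN1 was higher. Of these 7, FN1 was called with AZD8055, as higher, and COL1A1, VIM, CDH2 and FN1 rose with the combination in limma, where 36.0% of all genes were called, by 0.65 ± 0.20 (SE) to 2.17 ± 0.40 on the log2 scale. The 4 of 8 biliary markers summed to 6601, 3410 and 6722 untreated and to 12410, 4337 and 6352 with the combination, and of them SOX9 fell by 0.88. The 2 of 9 immune and endothelial markers summed to 1150, 7573 and 285.8 untreated and to 40.52, 527.6 and 464.4 with the combination, and neither was called. In the same lines untreated, LYZ had 1141, 7518 and 0.769 scaled reads and PECAM1 had 9.38, 55.8 and 285. None of these markers was at 0 in all libraries of a line, and their part in the results below was not tested.

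The promoters shown here are those of ALB, the most abundant transcript of the group, and of the fibrinogen genes and VTN, which rose with the combination. Each run holds the 250 bases before the transcription start in RefSeq (GRCh38.p14), written 5′ to 3′ on the strand of the gene. Capitals mark matches on either strand to the C/EBP motif TTGCNNAA. Of the FGB windows in the table, the one farthest upstream is shown.
ALB (chr4:73404037-73404286, plus strand): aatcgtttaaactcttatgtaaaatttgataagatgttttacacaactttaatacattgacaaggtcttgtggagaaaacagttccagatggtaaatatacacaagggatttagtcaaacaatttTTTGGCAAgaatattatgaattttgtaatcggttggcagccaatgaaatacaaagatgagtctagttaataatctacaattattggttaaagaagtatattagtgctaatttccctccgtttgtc
FGB (chr4:154562730-154562979, plus strand): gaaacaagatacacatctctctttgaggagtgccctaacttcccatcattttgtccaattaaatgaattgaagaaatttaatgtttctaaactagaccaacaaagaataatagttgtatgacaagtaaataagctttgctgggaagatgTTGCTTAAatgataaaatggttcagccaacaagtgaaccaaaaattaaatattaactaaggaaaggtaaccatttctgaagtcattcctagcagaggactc
FGA (chr4:154590743-154590992, minus strand): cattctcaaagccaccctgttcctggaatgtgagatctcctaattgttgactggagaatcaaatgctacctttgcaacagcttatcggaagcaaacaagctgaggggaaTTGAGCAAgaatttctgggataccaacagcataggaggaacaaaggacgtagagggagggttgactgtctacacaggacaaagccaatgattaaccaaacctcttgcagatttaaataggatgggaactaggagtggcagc
FGG (chr4:154612657-154612906, minus strand): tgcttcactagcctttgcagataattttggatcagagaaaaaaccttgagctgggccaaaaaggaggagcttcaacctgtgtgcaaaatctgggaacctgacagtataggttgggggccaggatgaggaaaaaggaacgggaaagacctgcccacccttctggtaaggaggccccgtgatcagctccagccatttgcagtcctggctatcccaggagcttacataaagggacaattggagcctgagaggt
VTN (chr17:28370308-28370557, minus strand): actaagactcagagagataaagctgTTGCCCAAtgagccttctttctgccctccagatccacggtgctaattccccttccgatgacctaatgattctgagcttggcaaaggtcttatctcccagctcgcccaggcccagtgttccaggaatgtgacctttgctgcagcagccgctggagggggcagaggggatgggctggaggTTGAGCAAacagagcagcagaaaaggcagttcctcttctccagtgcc
In ALB, FGB and FGA, a C/EBP match began 125, 101 and 141 bases before the start. VTN had C/EBP matches 225 and 47 bases before the start, and in FGG none of the motifs searched was found within this window. Promoters of 31 of the 43 genes were matched, in 40 windows. Some genes have several windows, which can overlap and hold the same match, as in FGB. The C/EBP motif was in 27.5% of these windows against 9.05% of the 35116 windows counted. The FOXA motif TGTTTAC was in 12.5% against 2.98% and the HNF4 motif CAAAGTCCA in 2.5% against 0.325%, both strands counted. The HNF4 figure rests on 1 window, that of AHSG. By gene, C/EBP was in 10 of the 31. The windows counted leave out a chromosome that holds none of the 43 genes. An HNF1 motif was planned but not searched. A match describes letters and is not evidence of binding.

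Most of these genes were transcribed at very different levels in the 3 lines. The 43 genes took 4.984% of all reads in untreated Hep3B cells, 3.013% in Huh7 and 0.07625% in MHCC97H. In bulk RNA, fewer cells that express a gene and less RNA per cell cannot be told apart. ALB, the main carrier protein of plasma, made up 2.111% of the reads in Hep3B, 0.4075% in Huh7 and 0.003035% in MHCC97H. Per kilobase of the canonical transcript, untreated Hep3B had its highest levels in ALB (92377 scaled reads per kb), APOA2 (80711) and AHSG (18205), and Huh7 in ALB (17834), AMBP (13871) and APOA2 (13307). In MHCC97H the order was led by ITIH2 (1111 scaled reads per kb), which encodes a heavy chain of the inter-alpha inhibitors, followed by APOH (330.5), CP (154) and ALB (133). With 1 library per condition, neighbours in these orders were not tested against each other.

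**Figure D1:**
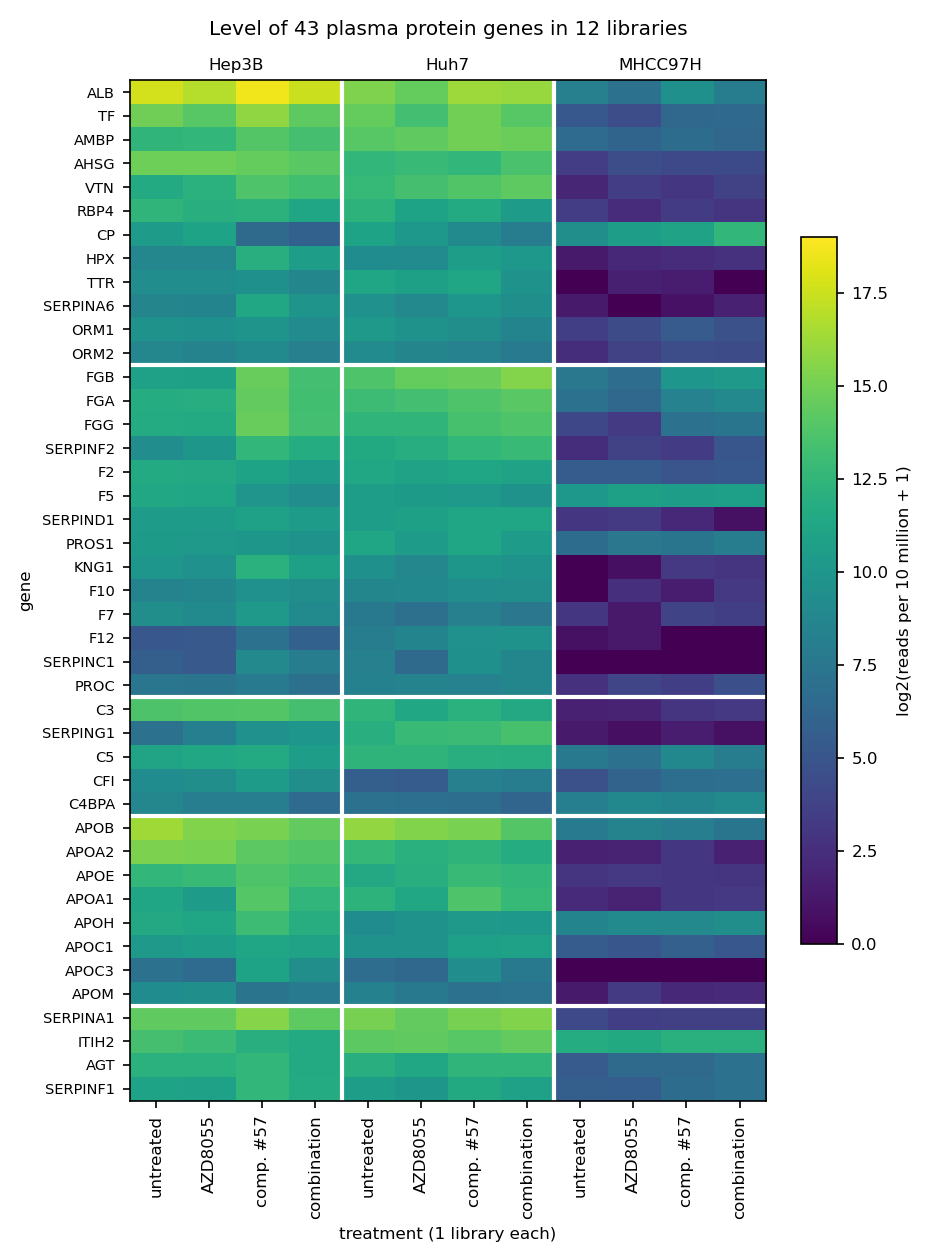
Heat map of 43 plasma protein genes (rows, in 5 groups split by white lines) in 12 libraries (columns, 1 library each), coloured by log2(reads per 10000000 + 1). Most rows are bright in the 8 libraries of Hep3B and Huh7 and dark in the 4 of MHCC97H, with CP, F5, C4BPA, APOH and ITIH2 as visible exceptions.

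In limma, with the 4 libraries of each line as repeats, 39 of the 43 genes (90.7%) were lower in MHCC97H than in Hep3B, where 67.8% of all genes passed in either direction. Against Huh7, 39 were lower and C4BPA was higher, with 70.2% of all genes passing. The median difference was -7.00 on the log2 scale against Hep3B and -7.30 against Huh7, while that over all genes was -0.13 and -0.023. The table holds only genes with a mean of at least 4.65 on the log2 scale, so a gene low in MHCC97H is in it through the other lines. APOA2 differed most from Hep3B, by -12.50 ± 0.32 (SE), and SERPING1, the inhibitor of the complement protease C1, most from Huh7, by -11.70 ± 0.42. SERPINC1, which encodes antithrombin, and APOC3 had 0 reads in all 4 MHCC97H libraries, which allows up to 2.634 scaled reads. CP, C4BPA, F5 and ITIH2 were not called between MHCC97H and Hep3B, with adjusted p-values of 0.0726, 0.0868, 0.731 and 0.12. C4BPA, which encodes a regulator of complement, had 297, 459, 389 and 547 scaled reads in MHCC97H, 446, 285, 277 and 97.2 in Hep3B and 137, 124, 118 and 71.4 in Huh7.

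Hep3B and Huh7 differed in 23 genes, 12 of them higher in Hep3B, with 55.1% of all genes passing. Higher in Hep3B were ALB by 2.12 ± 0.20, CFI by 2.71 ± 0.40, APOA2 by 2.41 ± 0.32 and APOH by 2.06 ± 0.25 on the log2 scale (± SE). The difference was negative, that is, higher in Huh7, for SERPING1 (-4.10 ± 0.42), the contact factor F12 (-3.14 ± 0.49) and FGB (-2.21 ± 0.49). SERPING1 had 133, 292, 787 and 989 scaled reads in Hep3B and 4137, 7078, 7988 and 11366 in Huh7. F12 had 34.7, 37.6, 136 and 58.3 in Hep3B and 267, 387, 787 and 816 in Huh7. Both genes are shown because their difference between these lines was among the largest.

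With AZD8055, 0 of the 43 genes passed the test. By direction alone, 8 were lower in all 3 lines, among them albumin, transferrin and retinol-binding protein 4. Another 6 were higher in all, among them VTN, SERPINF2 and F10. The share of all genes with a shared direction was not counted, so these counts are not read as a result about the group. The group as a whole took 3.504% of the reads in Hep3B, 2.499% in Huh7 and 0.08870% in MHCC97H with AZD8055, which is 0.703, 0.829 and 1.16 times the untreated share. ALB had 211082, 119637, 402561 and 181162 scaled reads in Hep3B, 40749.5, 23891, 76492 and 68574 in Huh7 and 303, 142, 732 and 256 in MHCC97H. In each line the AZD8055 library was the lowest for ALB and the compound #57 library the highest. TF, which encodes the iron carrier transferrin, had 30726, 16812, 58050.1 and 20472 in Hep3B, 23753, 10301, 31254 and 16762 in Huh7 and 36.1, 21.1, 85.2 and 89.0 in MHCC97H, and its lowest library was also that with AZD8055 in every line. RBP4, the carrier of retinol, had 5609, 3791, 4648 and 2275 in Hep3B, 4902, 2052, 3189 and 1454 in Huh7 and, on 13, 6, 10 and 8 reads, 9.99, 4.21, 8.78 and 6.47 in MHCC97H.

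Across the lines, limma gave a log2-fold change with AZD8055 of -0.97 ± 0.23 (SE) for RBP4 (adjusted p = 0.0518), -0.89 ± 0.24 for ALB (adjusted p = 0.0618) and -0.94 ± 0.32 for TF (adjusted p = 0.103). Thus 0 of 43 were called against 2.96% of all genes, with 5 of the 43 at an unadjusted p under 0.05. With voom on the whole reads RBP4 alone of the 43 was called, against 434 of all 11548 genes. The number of at least 2-fold changes differed between the lines. In Hep3B, 1 gene (SERPING1) was at least 2-fold higher, against 3.76% of all genes, and 0 were lower, against 0.8%. In Huh7, 0 were higher (5.88% of all genes) and 4 lower (2.48%), namely TF, RBP4, SERPINC1 and C3. In MHCC97H, 10 of the 36 genes with more than 3 reads in either library were higher (7.08%) and 3 lower (3.08%), among them CP and F10 as higher and ALB as lower. The median change was -0.066 ± 0.31 (SD over the 3 lines) and that of all genes 0.019 ± 0.036. The median was -0.082 in Hep3B, -0.37 in Huh7 and 0.25 in MHCC97H, and -0.049 in MHCC97H over the 22 genes with at least 10 reads in both libraries.

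**Figure D2:**
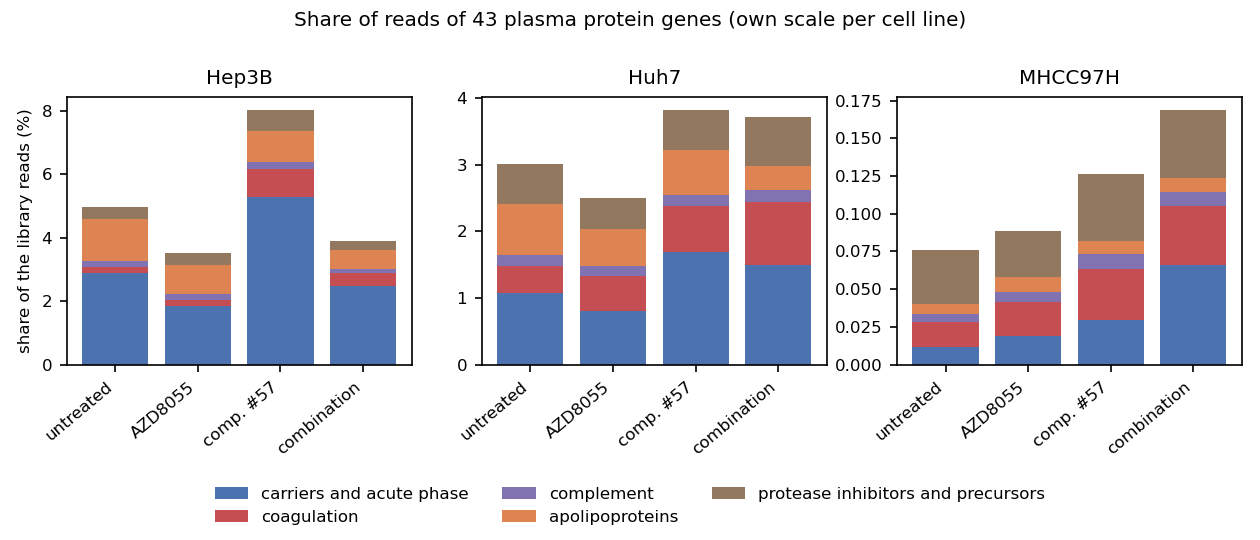
Bars show the share of all reads of a library, in percent, taken by the 43 genes, stacked by group, for 4 treatments (1 library each) in each line, on a scale of its own per line. The bar with compound #57 is the tallest in Hep3B (8.021%) and Huh7 (3.818%), and that with the combination in MHCC97H (0.1687%). In MHCC97H the single gene CP held 890, 2239, 2217 and 7525 of the 9925, 12637, 14405 and 20849 reads of the 43 genes.

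With compound #57, 21 of the 43 genes were higher in all 3 lines and 2 lower. HPX, FGG and CFI were at least 2-fold higher in each line, HPX on 2 and 5 reads in MHCC97H. For these counts over all 3 lines the share of all genes was not counted. The largest log2-fold changes were those of APOC3 (3.83) and FGB (3.66) in Hep3B, CFI (2.54) and APOC3 (2.48) in Huh7 and, apart from KNG1 with 0 reads untreated, FGG (2.97) and FGB (2.42) in MHCC97H. The group took 8.021% of reads in Hep3B, 3.818% in Huh7 and 0.1265% in MHCC97H, or 1.61, 1.27 and 1.66 times the untreated share, and without ALB 1.39, 1.17 and 1.63 times. The median of the log2-fold changes was 0.92 for Hep3B, 0.50 in Huh7 and 0.83 in MHCC97H, a mean of 0.75 ± 0.22 (SD over the 3 lines), against 0.042 ± 0.037 for all genes. In Hep3B, 20 of the 43 were at least 2-fold higher (8.92% of all genes) and 6 at least 2-fold lower (3.74%). In Huh7, 11 were higher (4.4%) and 2 lower (1.51%). In MHCC97H, 15 of the 36 genes above 3 reads were higher (2.98%) and 0 lower (0.779%), many of them on few reads. Both Hep3B and Huh7 had 10 of the 43 at least 2-fold higher (HPX, VTN, FGG, F12, SERPINC1, SERPINF2, CFI, APOA1, APOC3 and APOE), against 2.86% of all genes, and CP and APOM at least 2-fold lower, against 0.961%.

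The test across the 3 lines did not call these changes. In limma, 0 of 43 genes were called for compound #57 against untreated, as 0.00866% of all genes were (1 gene), while 20 of the 43 had an unadjusted p under 0.05, and their smallest adjusted p was 0.0912. With voom on the whole reads, 7 were called, all higher (APOC3, HPX, SERPINF2, APOA1, APOE, SERPINF1 and VTN). In that fit 90 of all 11548 genes were called. Without the MHCC97H libraries, 17 of the 43 were called, 15 as higher and CP and APOM as lower, against 6.74% of all genes in the same fit.

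**Figure D3:**
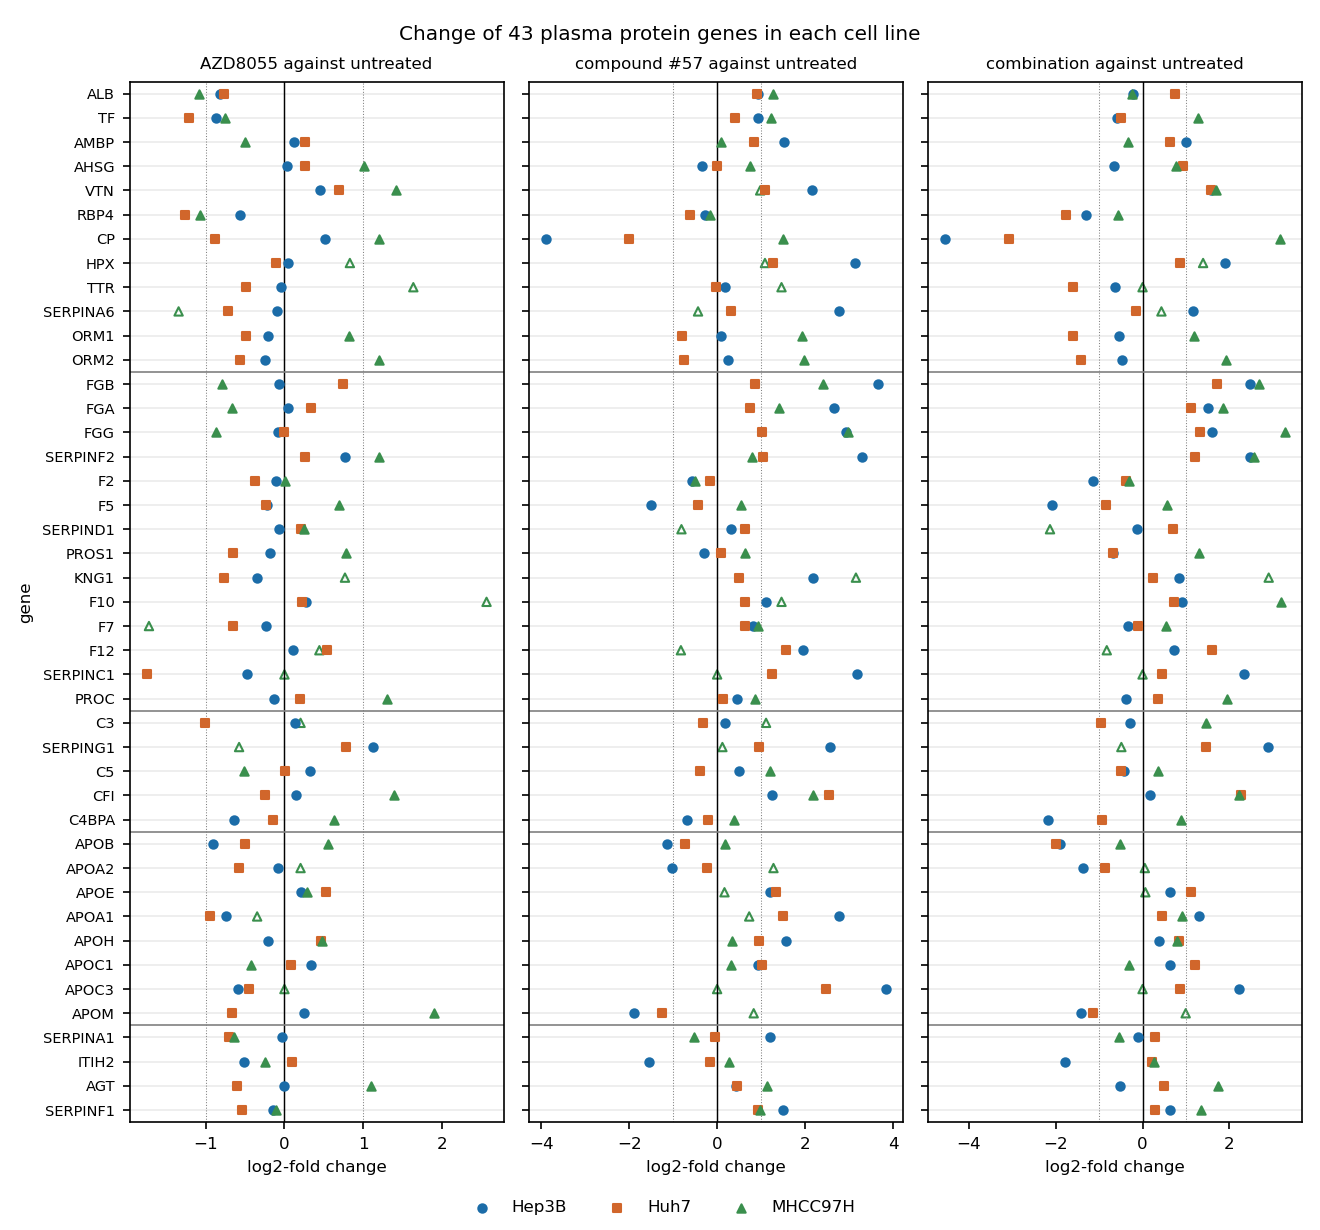
Log2-fold change (x axis) of each of the 43 genes (rows, in 5 groups split by grey lines) with AZD8055, compound #57 or the combination against untreated cells, 1 point per line. Open points mark values with fewer than 10 reads in both libraries, and dotted lines mark 2-fold. With compound #57 most points lie right of 0 while CP, F5, APOB, APOA2 and APOM lie left of it in Hep3B and Huh7 and right of it in MHCC97H.

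Among the carriers, HPX, which encodes the heme-binding hemopexin, had 434, 449, 3842 and 1622 scaled reads in Hep3B and 619, 574, 1489 and 1128 in Huh7. The HPX library with compound #57 was the highest in both lines, and its log2 difference from untreated was 3.14 on the log2 scale in Hep3B (95% interval of counting error 3.01 to 3.29) and 1.26 in Huh7 (1.16 to 1.38). In MHCC97H, HPX had only 2, 5, 5 and 7 reads. VTN encodes vitronectin, an adhesion protein that also binds plasminogen activator inhibitor, and had 3197, 4388, 14237 and 9482 in Hep3B, 6808, 10985, 14429 and 20349.8 in Huh7 and 3.07, 9.83, 7.02 and 12.1 in MHCC97H. In all 3 lines each treated library was above the untreated one for VTN. AMBP, the precursor of alpha-1-microglobulin and bikunin, had 5489, 5967, 15703 and 10989.8 in Hep3B and 17506, 20915, 31118 and 27182 in Huh7, also highest with compound #57. AHSG, which encodes fetuin-A, had 28655, 29200.3, 22752 and 18278 in Hep3B and 6188, 7429, 6201 and 11839.8 in Huh7, so that the combination library was its lowest in Hep3B and its highest in Huh7. SERPINA6, the cortisol carrier, had 402, 377, 2729 and 900.4 in Hep3B and 793, 480.4, 989 and 709 in Huh7, with the compound #57 library on top in both. TTR, the thyroxine carrier transthyretin, stayed within 2-fold of untreated with compound #57 in these lines, with 650.1, 631, 739 and 419.8 in Hep3B and 2479.8, 1770.4, 2429 and 822 in Huh7. ORM1 and ORM2, near-identical acute phase genes whose reads may be split between them, were lower in Huh7 (log2-fold change -0.81 and -0.75) and higher in MHCC97H (1.93 and 1.98) with compound #57.

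Ceruloplasmin, the copper-binding ferroxidase encoded by CP and singled out after its values were seen, went against most other carriers. CP had 1420.3, 2027, 94.8 and 60.0 scaled reads in Hep3B, 2108, 1145, 523 and 248 in Huh7 and 684, 1572, 1947 and 6088 in MHCC97H. In Hep3B and Huh7 both libraries with compound #57 were below both without it, whereas in MHCC97H every treated library was above the untreated one and the combination library was the highest. The log2-fold change with compound #57 was -3.89 in Hep3B (-4.16 to -3.66), -2.01 in Huh7 (-2.13 to -1.89) and 1.51 in MHCC97H (1.40 to 1.62). These intervals cover counting error only. Exons of HPS3 on the other strand cover 27.7% of the CP transcript, and the use of strand in counting is not given in the sources used here. HPS3 had 1124 scaled reads in untreated Hep3B and 597 with the combination, and 1275 and 1378 in MHCC97H, a smaller change in both lines than that of CP.

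**Figure D4:**
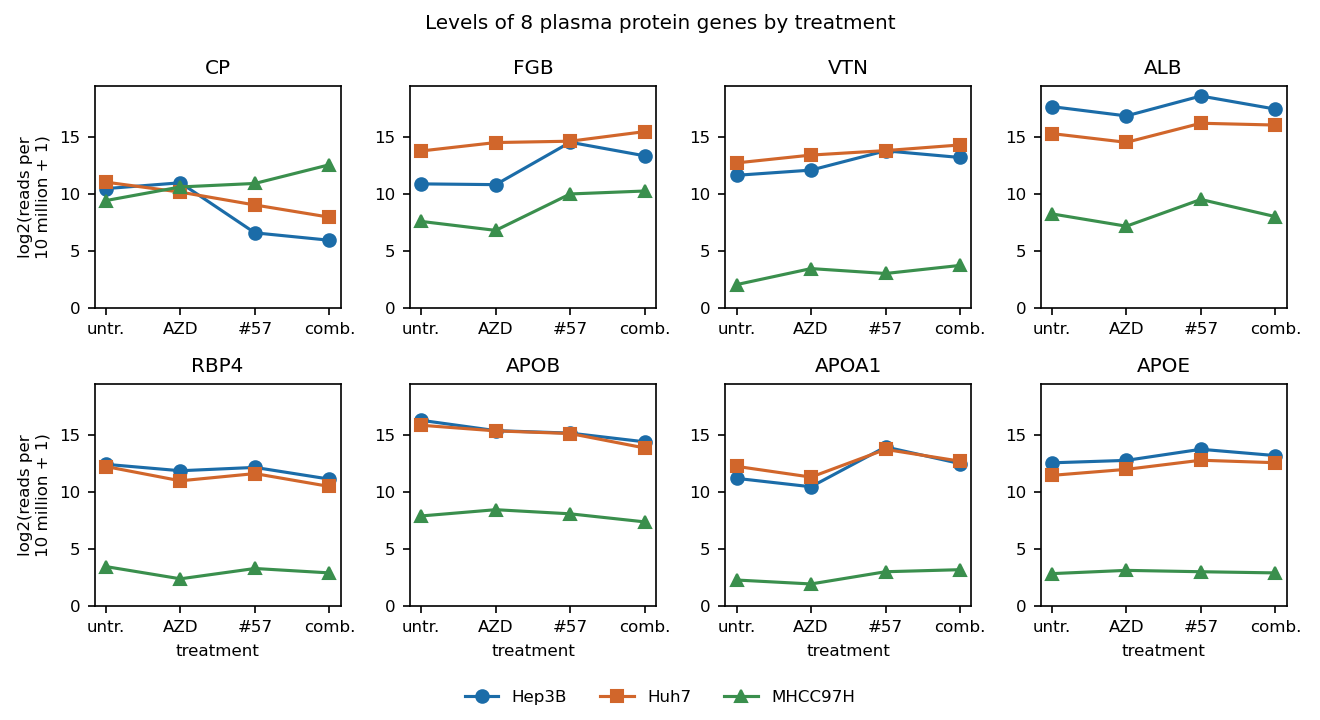
Level on the y axis, as log2(reads per 10000000 + 1), of 8 of the genes with each treatment in Hep3B, Huh7 and MHCC97H (1 library per point, lines join the libraries of a cell line). CP descends in Hep3B and Huh7 and ascends in MHCC97H with compound #57 and the combination, FGB and VTN stand higher with the combination than untreated in all 3 lines, and APOB stands lower.

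In the coagulation group the fibrinogen chains stood out. FGA, FGB and FGG lie within one stretch of chromosome 4, with 10318 bases between FGB and FGA and 13391 between FGA and FGG. Together they took 0.08626%, 0.08475%, 0.7088% and 0.3032% of the reads in Hep3B, and 0.2783%, 0.3953%, 0.5048% and 0.7763% in Huh7. In MHCC97H they took 0.003396%, 0.002015%, 0.01509% and 0.01874%. Their share with compound #57 was thus 8.22 times the untreated share in Hep3B, 1.81 times in Huh7 and 4.44 times in MHCC97H. FGB, the beta chain, had 1896, 1809, 23992 and 10488 scaled reads in Hep3B, 14099, 23597, 25604 and 45956 in Huh7 and 191, 110.2, 1025 and 1226 in MHCC97H. FGA, the alpha chain, had 3458, 3576, 21894 and 9841 in Hep3B, 8232, 10432, 13795 and 17854 in Huh7 and 132, 82.8, 351 and 483 in MHCC97H. FGG, the gamma chain, had 3272, 3089.5, 24994 and 9987 in Hep3B, 5503, 5503, 11080.3 and 13822 in Huh7 and 16.1, 8.42, 133 and 165 in MHCC97H. All chains were highest with compound #57 in Hep3B and with the combination in Huh7 and MHCC97H, and with AZD8055 alone they stood lower in MHCC97H, with log2-fold changes from -0.67 to -0.86.

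SERPINF2, which encodes the plasmin inhibitor alpha-2-antiplasmin, had 631, 1079, 6189.6 and 3492 in Hep3B, 3017, 3607, 6237 and 7009 in Huh7 and 4.61, 11.9, 8.78 and 32.4 in MHCC97H, and each treated library was above the untreated one in every line. KNG1, the kininogen from which bradykinin is cut, had 994, 784, 4519 and 1783 in Hep3B and 743, 437, 1053 and 881 in Huh7. In MHCC97H it had 0, 1, 9 and 8 reads, so that it was at least 3.43-fold higher with compound #57, taking 3 reads as the most that the untreated library could hold. SERPINC1 had 52.5, 37.6, 481 and 271 in Hep3B and 315, 93.1, 747 and 427 in Huh7, lowest with AZD8055 and highest with compound #57 in both lines. F10, the activator of prothrombin, had 354, 428, 766 and 669 in Hep3B, 411, 478, 637 and 676 in Huh7 and, on 0, 7, 2 and 10 reads, 0, 4.91, 1.76 and 8.09 in MHCC97H. F12, which starts the contact pathway, had log2-fold changes with compound #57 of 1.94 in Hep3B and 1.56 in Huh7. F2, prothrombin itself, and F5, the cofactor of F10, went the other way in Hep3B, with -0.58 and -1.50. F2 had 3116, 2895, 2082 and 1403 in Hep3B, 2517, 1951, 2245 and 1929.5 in Huh7 and 45.3, 45.6, 31.6 and 36.4 in MHCC97H, and with both compounds it was below untreated in every line. F7, which starts the extrinsic pathway with tissue factor, differed from untreated by 0.82 in Hep3B and 0.63 in Huh7, and the anticoagulants PROC and PROS1 by 0.44 and -0.30 in Hep3B and 0.13 and 0.08 in Huh7, on the log2 scale. Over the 14 coagulation genes the median change with compound #57 on the log2 scale was 1.53 in Hep3B, 0.63 in Huh7 and 0.83 in MHCC97H, where 11 of them had more than 3 reads.

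Of the complement genes, CFI and SERPING1 stood higher with compound #57 in Hep3B and Huh7. CFI, the protease that cleaves C3b, had 591, 654, 1395 and 660.5 scaled reads in Hep3B, 52.6, 44.1, 312 and 257 in Huh7 and 24.6, 66.0, 114 and 119 in MHCC97H. Its exons are shared over 79.0% of their length with an annotated readthrough gene on the same strand, so its reads may be divided. SERPING1 was higher with each treatment than untreated in both Hep3B and Huh7 and had at most 2 reads in any MHCC97H library. C3, the central complement protein, had 13272, 14590.3, 15126 and 10942 in Hep3B and 5465, 2725, 4396 and 2808 in Huh7 and did not reach a 2-fold change with compound #57 in these lines. C5, which starts the membrane attack complex, had log2-fold changes with compound #57 of 0.49, -0.40 and 1.20 in Hep3B, Huh7 and MHCC97H.

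The apolipoproteins divided. APOA1, the main protein of high density lipoprotein, had 2384, 1427, 16178 and 5869 scaled reads in Hep3B and 4956, 2574, 13933 and 6796 in Huh7, with the lowest library at AZD8055 and the highest at compound #57 in both lines. APOC3, an inhibitor of triglyceride clearance whose gene lies 2678 bases from APOA1, had 145, 96.5, 2084 and 682 in Hep3B and 112, 81.5, 626 and 202 in Huh7 and showed the same order. APOE, a ligand of lipoprotein receptors, had 6145, 7137, 14049.6 and 9558 in Hep3B and 2860.1, 4128, 7198 and 6191 in Huh7, each treated library above the untreated one. APOC1, next to APOE, and APOH were also higher with compound #57, by 0.92 and 1.57 in Hep3B and 1.03 and 0.96 in Huh7 on the log2 scale. In contrast, APOB, the structural protein of low density lipoprotein, had 82236, 43773, 37636 and 22112 in Hep3B, 60779, 43106, 36716 and 15208 in Huh7 and 239.7, 352, 273 and 167 in MHCC97H. Every treated library was below the untreated one for APOB in Hep3B and Huh7. APOA2, the second protein of high density lipoprotein, had 38257, 36152, 18792 and 14900.0 in Hep3B and 6307, 4212, 5369 and 3445 in Huh7, and APOM, which carries sphingosine-1-phosphate, had 593, 707, 159 and 223 and 323, 203, 136 and 146. APOB and APOA2 held most of the reads, and the share of the 8 genes was lower with compound #57, at 0.744 times untreated in Hep3B and 0.871 times in Huh7, although their median log2-fold change was 1.06 and 0.99. Apart from APOB, APOC1 and APOH, the apolipoproteins had at most 12 reads in any MHCC97H library.

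Of the protease inhibitors and precursors, SERPINA1, which encodes alpha-1-antitrypsin, had 21275, 20786, 48984 and 19714 scaled reads in Hep3B and 35906, 21962, 34583 and 43920.0 in Huh7, with its highest library at compound #57 in Hep3B and at the combination in Huh7. SERPINF1, an inhibitor of blood vessel growth that lies 6763 bases from SERPINF2, had 2112, 1912, 5998 and 3288 in Hep3B, 1554, 1066, 2944 and 1882 in Huh7 and 53.0, 49.1, 105 and 136 in MHCC97H. ITIH2 had 11024, 7745, 3769 and 3189.7 in Hep3B, 19355, 20638, 17219 and 22420.4 in Huh7 and 3496, 2938, 4244 and 4227 in MHCC97H, so that it was lower with all 3 treatments in Hep3B alone. AGT, the precursor of angiotensin, had log2-fold changes with compound #57 of 0.44 in Hep3B, 0.46 in Huh7 and 1.13 in MHCC97H.

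With the combination, the fibrinogen genes, plasmin inhibitor, vitronectin, hemopexin and 4 further genes rose across the 3 lines, while APOB, RBP4 and prothrombin fell. Limma called 13 of the 43 genes (30.2%) against 36.0% of all genes, 10 as higher and 3 as lower, so the share was no higher than that of the table. Among the higher genes, the log2-fold change was 2.28 ± 0.57 (SE) for FGB (adjusted p = 0.0142), 2.08 ± 0.49 for SERPINF2 (adjusted p = 0.011), 2.07 ± 0.53 for FGG (adjusted p = 0.0152), 1.61 ± 0.30 for VTN (adjusted p = 0.00527) and 1.50 ± 0.39 for FGA (adjusted p = 0.0169). Each of these 5 genes was at least 2-fold higher in all 3 lines. F10 (1.61 ± 0.47), CFI (1.55 ± 0.46), HPX (1.39 ± 0.42), KNG1 (1.33 ± 0.45) and SERPINF1 (0.75 ± 0.21) were called with adjusted p-values from 0.023 to 0.0441. The values of F10, KNG1 and HPX in MHCC97H rest on at most 10 reads per library, and those of VTN and SERPINF2 on 4 and 6 reads in untreated cells. F10 was at least 3.51-fold and KNG1 at least 2.81-fold higher there. Among the lower genes, the change was -1.47 ± 0.27 for APOB (adjusted p = 0.00492), -1.20 ± 0.23 for RBP4 (adjusted p = 0.00532) and -0.61 ± 0.20 for F2 (adjusted p = 0.0361). All 3 were lower in each line. In MHCC97H this rests, untreated and with the combination, on 13 and 8 reads for RBP4 and 59 and 45 for F2.

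**Figure D5:**
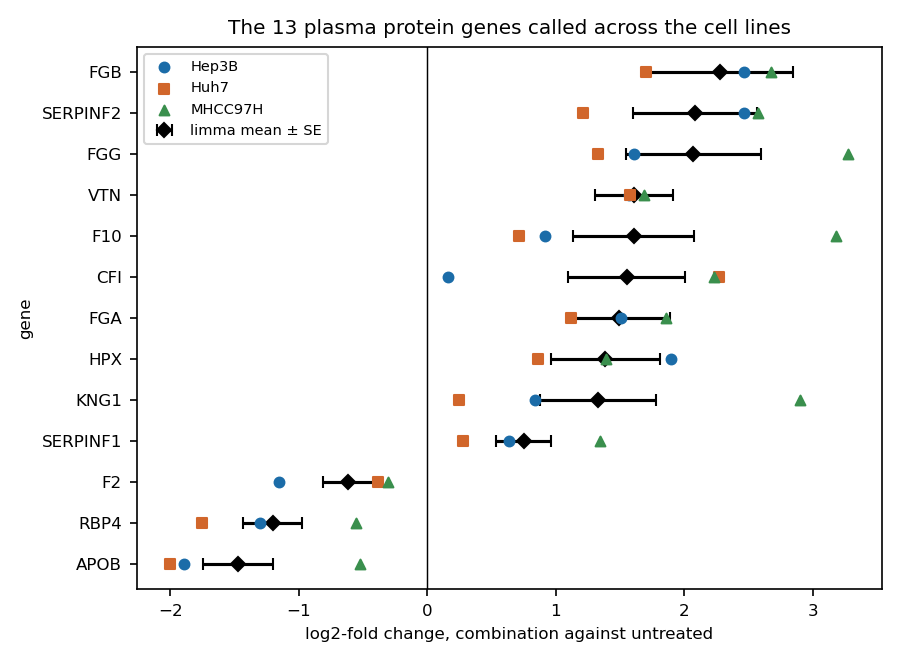
Log2-fold change with the combination against untreated (x axis) for the 13 genes that limma called (rows), with 1 coloured point per line and the limma mean ± SE in black. The 10 upper genes lie right of 0 and the 3 lower genes (F2, RBP4 and APOB) left of 0 in every line, with KNG1, F10 and CFI widest apart between lines.

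The call count depended on which lines were used. It was 0 without Huh7, 5 without Hep3B (CFI, SERPINF2, VTN and APOH higher and APOB lower) and 24 without MHCC97H, 12 in each direction. Over all 11548 genes the count in the same fits also varied, with 11, 1797 and 3778 called. The share of the 43 genes called was 0.0%, 11.6% and 55.8% in that order. Within lines, 12 of the 43 were at least 2-fold higher with the combination in Hep3B (11.6% of all genes) and 9 lower (5.98%). In Huh7, 10 were higher (12%) and 7 lower (6.48%). In MHCC97H, 18 of the 36 genes above 3 reads were higher (11.5%), many of them on few reads, and 1, SERPIND1, was lower (4.72%). Only 22 of the 43 had at least 10 reads in both of these MHCC97H libraries. Both Hep3B and Huh7 had 6 genes at least 2-fold higher (VTN, FGA, FGB, FGG, SERPINF2 and SERPING1), against 6.45% of all genes, and 4 at least 2-fold lower (RBP4, CP, APOB and APOM), against 3.16%. Over the 43 genes the median change on the log2 scale was -0.13 for Hep3B, 0.36 for Huh7 and 0.78 in MHCC97H, a mean of 0.34 ± 0.46 (SD), against 0.062 ± 0.025 for all genes. The coagulation genes held the highest group medians in Hep3B and MHCC97H, at 0.79 and 1.58, and in Huh7 the apolipoproteins, at 0.64, with the coagulation genes at 0.57. The carriers were at -0.50 in Hep3B, -0.33 in Huh7 and 0.98 in MHCC97H. ALB stood near its untreated level in Hep3B and MHCC97H, with log2-fold changes of -0.22 and -0.24, and stood at 0.75 in Huh7. The apolipoprotein share of reads was 0.44 times untreated in Hep3B, 0.456 times in Huh7 and 1.3 times in MHCC97H.

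Set against AZD8055 alone, the addition of compound #57 went with higher levels of the fibrinogen genes, KNG1, ALB and APOA1 in all 3 lines. Limma called 0 of the 43 genes in this comparison and 0.0% of all genes, with 18 of the 43 and 1673 genes at an unadjusted p under 0.05. The log2-fold change was 2.39 ± 0.53 (SE) for FGG, 2.32 ± 0.57 for FGB, 1.59 ± 0.39 for FGA, 1.57 ± 0.37 for APOA1, 0.99 ± 0.24 for ALB and -1.19 ± 0.27 for APOB, with adjusted p-values from 0.161 for SERPINF1 upwards. FGG, KNG1 and APOA1 were at least 2-fold higher in each line, in MHCC97H on 12 and 204, 1 and 8, and 4 and 10 reads. The comparisons with untreated cells use the same untreated libraries and this comparison shares libraries with them, so their values are not independent of each other.

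The change with the combination differed between MHCC97H and the other lines for 4 of the 43 genes, CP, TF, F10 and SERPIND1, in a limma fit with a term for this difference, against 0.944% of all genes. The difference was 6.97 ± 1.18 (SE) for CP, whose log2-fold change was -4.54 in Hep3B, -3.08 in Huh7 and 3.15 in MHCC97H (adjusted p = 0.0499). For TF it was 1.82 ± 0.30 (adjusted p = 0.0472), from -0.59 and -0.50 to 1.28, the last on 47 and 110 reads. F10 (2.37 ± 0.37) and SERPIND1 (-2.42 ± 0.37), both at an adjusted p of 0.0467, rest on 10 or fewer reads in the untreated and combination libraries of MHCC97H. SERPIND1, which encodes heparin cofactor II, had 9, 12, 4 and 1 reads there and 1480.3, 1406, 1836 and 1353 scaled reads in Hep3B and 1509.7, 1739, 2333 and 2458 in Huh7. In this fit the spread comes from Hep3B and Huh7 alone, so the p-values do not measure variation of the single MHCC97H libraries. With 10 in place of 1 added before the logarithm, with libraries centred on their medians or with voom, none of the 4 was called, at adjusted p-values of 0.0574, 0.0561 and 0.0735 for CP. For AZD8055 the same term called 0 of the 43 genes (10 at an unadjusted p under 0.05), and for compound #57 0 (19 at an unadjusted p under 0.05), among which the difference for CP was 4.46 ± 1.18 (adjusted p = 0.475).

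Genes of related function were counted in the same limma fit of the combination against untreated cells, in which 36.0% of all genes were called and the median log2-fold change over all genes was 0.086, and the counts below are read against that share. Of 24 other plasma protein genes, 5 rose and 1 fell (median 0.33), a share of calls below that of all genes. Among those that rose were HAMP, the iron hormone hepcidin (1.45 ± 0.44), SERPINA5 (1.26 ± 0.41) and the complement genes C2 (1.71 ± 0.39) and C1S (1.18 ± 0.39), while CPB2, an inhibitor of fibrinolysis, fell (-0.99 ± 0.31). Of 18 genes of lipoprotein assembly, processing and uptake, LCAT and LIPC rose and LIPG, SAR1B, SURF4 and P4HB fell (median -0.14), a share close to that of all genes. SAR1B and SURF4 serve the export of lipoproteins from the endoplasmic reticulum, and P4HB is a subunit of the transfer protein that loads lipid on APOB. MTTP, the other subunit, had 821, 1166, 948 and 885 scaled reads in Hep3B and 4674, 3039.6, 5395 and 3722 in Huh7. Of 24 liver transcription factors, 9 rose and 2 fell (median 0.36), against the same 36.0%. Those that rose included ONECUT1 (1.69 ± 0.20), NR5A2 (1.84 ± 0.33) and HNF4A (0.84 ± 0.18), and also HNF4G, PPARA, GATA6, FOXA1 and STAT3, and those that fell included CEBPA (-0.42 ± 0.12). Of 12 genes of interleukin 6 signalling, SOCS3 (1.57 ± 0.45), IL1R1 (1.02 ± 0.19), RELA (0.47 ± 0.11), STAT3 (0.42 ± 0.15) and JAK1 (1.34 ± 0.12) rose and 0 fell (median 0.39), a count also near that of all genes, with STAT3 in both lists. SOCS3, an inhibitor of this pathway, had 9.38, 45.0, 33.9 and 59.2 scaled reads in Hep3B, 10.7, 65.7, 25.8 and 49.9 in Huh7 and 167, 236, 95.7 and 175 in MHCC97H, so that all treated libraries were above untreated in Hep3B and Huh7. With compound #57 alone, 0 genes of these 4 lists were called, with medians of 0.39, 0.19, 0.22 and 0.33 in the same order, and with AZD8055 only JAK1 was.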

How the data were processed

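Total RNA of 12 cell cultures was purified with RNeasy kits, made into stranded TruSeq poly(A) libraries and sequenced, with hg38 as the stated genome. The authors deposited log2 values for 11548 genes, and the aligner, the counting, the use of strand and the normalization are not given in the sources used here. The deposited log2 values were worked out from the numbers to be log2(reads scaled to 10000000 per library + 1), with 0.001 written for 0 reads. On that scale 100% of the values gave whole reads (tolerance 0.05 reads). No replicate of a condition exists, so the cell line stands as the replicate. The p-values of treatment and cell line comparisons measure how far the treatment changes differ between the 3 lines.

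The log2 values of all genes were fitted with limma 3.58.1 (lmFit and eBayes with a mean trend, terms for cell line and treatment), with Benjamini-Hochberg adjustment over all genes and calls at 0.05. The pairing of treatments comes from the cell line itself, which is a term of the fit. Differences between MHCC97H and the other lines were tested with an interaction term, of which that for compound #57 was added after the data were seen. This fit matches each MHCC97H library exactly. Its p-values therefore measure the spread between Hep3B and Huh7 only, and not that of the single MHCC97H libraries. Within a line, folds were taken for genes with more than 3 reads in either library and are called at least 2-fold from 2 upwards. The fitting code was tested on simulated data. Intervals (95%) cover counting error only, and a gene with 0 reads was set to 3 reads for bounds. Levels per kb used the canonical transcript of GENCODE. Promoters came from RefSeq.

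The 52 genes, their groups and the other lists were chosen with earlier results of these data known. Values in every library were given for the 2 most abundant genes of each group, those called in a treatment contrast, the 3 per direction with the largest change shared by all lines, and the 5 most different between lines. Other genes with values (CP, AMBP, SERPINA6, APOC3, SERPINC1, C4BPA and SERPIND1) were picked after their values were seen. Alternatives were another pseudocount, a filter, median centring, voom on the whole reads, fewer libraries, no cell line term and leaving out a line. Some genes of the other lists are not reported here.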

Additional observations from a re-analysis of the deposited data

Results flagged for a closer look

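For 4 genes the change with the combination differed between MHCC97H (24 h) and the other lines (48 h) in a test of the difference itself, the interaction term of limma. The difference, as MHCC97H minus the others on the log2 scale, was 6.97 ± 1.18 (SE) for CP (adjusted p = 0.0499), 2.37 ± 0.37 for F10 (adjusted p = 0.0467), 1.82 ± 0.30 for TF (adjusted p = 0.0472) and -2.42 ± 0.37 for SERPIND1 (adjusted p = 0.0467). Over the alternatives the adjusted p ranged from 0.0463 to 0.0735 for CP, from 0.0467 to 0.965 for F10, from 0.0450 to 0.175 for TF and from 0.0411 to 0.266 for SERPIND1. The MHCC97H values of F10 were 0 reads untreated and 10 with the combination, and those of SERPIND1 9 and 1. The spread in this test comes from Hep3B and Huh7 alone, and variation of the single MHCC97H libraries is not measured. The lines also differed in exposure, and the parts of line and exposure cannot be told apart.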

How the results depend on the processing

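No call changed direction under any alternative. With another pseudocount, the filter or median centring, the 4 median changes of the 43 genes moved by less than 1 SD over the lines. Leaving out a line cannot move their mean by 1 SD, so that alternative could not test them. With AZD8055 the medians of the lines ran from -0.37 in Huh7 to 0.25 in MHCC97H. With AZD8055, 0 genes were called, but 1 (RBP4) with the filter on low values, 1 with median centring and 1 with voom. With compound #57, 0 became 7 with voom and 0 to 17 on leaving out a line in turn. With the combination, 13 became 21 with voom, 0 without the cell line block that pairs the libraries and 0 to 24 on leaving out a line in turn (0 without Huh7, 24 without MHCC97H). The 4 differences between MHCC97H and the other lines became 0 with 10 added before the logarithm, 0 with median centring and 0 with voom. Of the 17 single genes called with the combination or in that difference, 6 were no longer called with 10 added, 5 with median centring, 6 with voom, and 0 of the 15 still tested with the filter. Of the 13 called with the combination, 13 lost their call without the block, 5 with only the compared libraries, and 13, 9 and 5 without Huh7, Hep3B and MHCC97H. In each case the cause was not tested. Over all genes, 4154 were called with the combination, 4144 with voom, 1889 from only the compared libraries and 0 without the block. Without Huh7, Hep3B and MHCC97H in turn, 11, 1797 and 3778 were called. Median centring moved the split of the calls with the combination from 2410 higher and 1744 lower to 1993 and 2229. With AZD8055, 342 genes (255 higher, 87 lower) became 473 (256 and 217) with centring, 2 from the compared libraries, 0 without the block and 0, 1 and 109 without Huh7, Hep3B and MHCC97H. With compound #57, 1 became 90 with voom and 778 without MHCC97H. In the difference between MHCC97H and the other lines, 109 became 37 with 10 added, 37 with centring and 29 with voom. Depth limits the members in MHCC97H, where 7 to 12 of the 43 had 3 reads or fewer in a library and 3 to 5 had 0.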
